A study of Mus musculus with 48 samples.

Results

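The genes described here are 9 genes of the peroxisomal beta-oxidation pathway (Ehhadh, Acaa1a, Acaa1b, Hsd17b4, Abcd2, Abcd3, Pex11a, Decr2 and Crot), taken by symbol from the 11355 genes listed in either of the deposited TempO-Seq tables. All 9 were listed among the 11275 genes of the frozen (FROZ) table, and 8 of the 9 among the 6673 genes of the formalin-fixed paraffin-embedded (FFPE) table, where Abcd2 is not listed. The livers came from 24 male B6C3F1 mice aged 4 weeks. Vehicle controls (0 mg/kg-d) drank water without dichloroacetic acid (DCA), a by-product of water chlorination, and the treated groups received 198, 313 or 427 mg/kg-d of DCA in drinking water for 6 days, doses that were estimated from water intake. Each dose had 6 mice, and each mouse gave 1 FROZ and 1 FFPE library, so n = 6 for every group mean below. TempO-Seq counts ligated pairs of detector oligos that lie side by side on a transcript. FROZ libraries started from extracted RNA and FFPE libraries directly from tissue lysate, and the samples of a liver came partly from different lobes, so preservation, extraction and lobe cannot be told apart.

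Peroxisomes shorten very long-chain, branched and dicarboxylic fatty acids that mitochondria handle poorly. The fatty acids enter through ABC transporters such as Abcd2 and Abcd3, are oxidised by acyl-CoA oxidases, hydrated and dehydrogenated by the bifunctional enzymes Ehhadh and Hsd17b4, and cleaved by the thiolases Acaa1a and Acaa1b. Decr2 removes double bonds, Crot transfers shortened chains to carnitine for export to mitochondria, and Pex11a takes part in the growth and division of the organelle. In rodent liver the nuclear receptor Ppara is the classical regulator of this pathway.

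Values are log2(CPM + 1), where CPM is the read count scaled to a fixed total over the genes listed in the table. The listed genes held 6.67 to 9.83 M reads per FROZ library and 1.83 to 6.00 M reads per FFPE library, and 14 to 61 genes were at 0 in a FROZ library against 65 to 1589 in an FFPE library. The FFPE libraries of the dose groups differed in this respect, with a median of 286 genes at 0 in vehicle controls and of 989, 634.5 and 138 at the rising doses. Fold changes are differences of mean log2(CPM + 1) tested by limma over all genes of a table, "rose" and "fell" mean an FDR under 0.05, and DEGs also changed more than 2-fold. Of 8 hepatocyte markers, 6 were listed in FROZ, with a summed level of 21915 to 27689 CPM in vehicle controls and 19240 to 23454 CPM at 427 mg/kg-d, and 5 in FFPE, with 37736 to 50287 and 26086 to 31133 CPM. In FFPE these ranges did not overlap and 1 of the 5 fell (0.869% of all genes), Apoa1 at -0.79 (FDR = 0.0078), while 2 were higher without passing. In FROZ 1 of the 6 rose, Hnf4a at 0.45 (22.7% of all genes), and 1 fell, Apob at -0.53 (7.33%). Apoa1 had the highest mean of these markers in vehicle controls (14.2 in FROZ and 14.9 in FFPE), and so weighs most in the sums. In whole liver, fewer cells of a type, less RNA per cell and changes of single markers cannot be told apart.

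In FROZ, the pathway was broadly higher at 313 and 427 mg/kg-d, while the smaller differences at 198 mg/kg-d did not pass. The log2 fold change at 198 mg/kg-d was above 0 for 8 of 9 members and for 7398 of 11275 genes. No member passed the limma test at 198 mg/kg-d (0 of 9, where 1.12% of all genes rose). An unadjusted limma p under 0.05 was reached at that dose by 2 of 9 members and by 1924 of 11275 genes, in either direction. At 313 mg/kg-d 8 of 9 rose (20.5% of all genes), and at 427 mg/kg-d 9 of 9 rose (22.7% of all genes). Of these, 6 were higher DEGs at 313 mg/kg-d (1.43% of all genes) and 7 at 427 mg/kg-d (2.26% of all genes), the exceptions at the top dose being Hsd17b4 and Crot. No member fell at 427 mg/kg-d, against 7.33% of all genes. All 6 treated mice lay above all 6 controls for 7 of 9 members at 313 mg/kg-d (9.14% of all genes) and for 9 of 9 at 427 mg/kg-d (11.4% of all genes). The median log2 fold change of the members was 0.23, 1.30 and 1.87 at the rising doses, where the median over all genes was 0.070, 0.106 and 0.104. After median-ratio scaling, which brings the median of all genes to about 0 (-0.0069 at 427 mg/kg-d), the members' medians were 0.14, 1.17 and 1.76 and the counts of members that rose were the same. Over all genes the split at 427 mg/kg-d moved from 2565 that rose and 826 that fell to 1423 and 1424, and at 313 mg/kg-d from 2317 and 693 to 1156 and 1222.

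**Figure D1:**
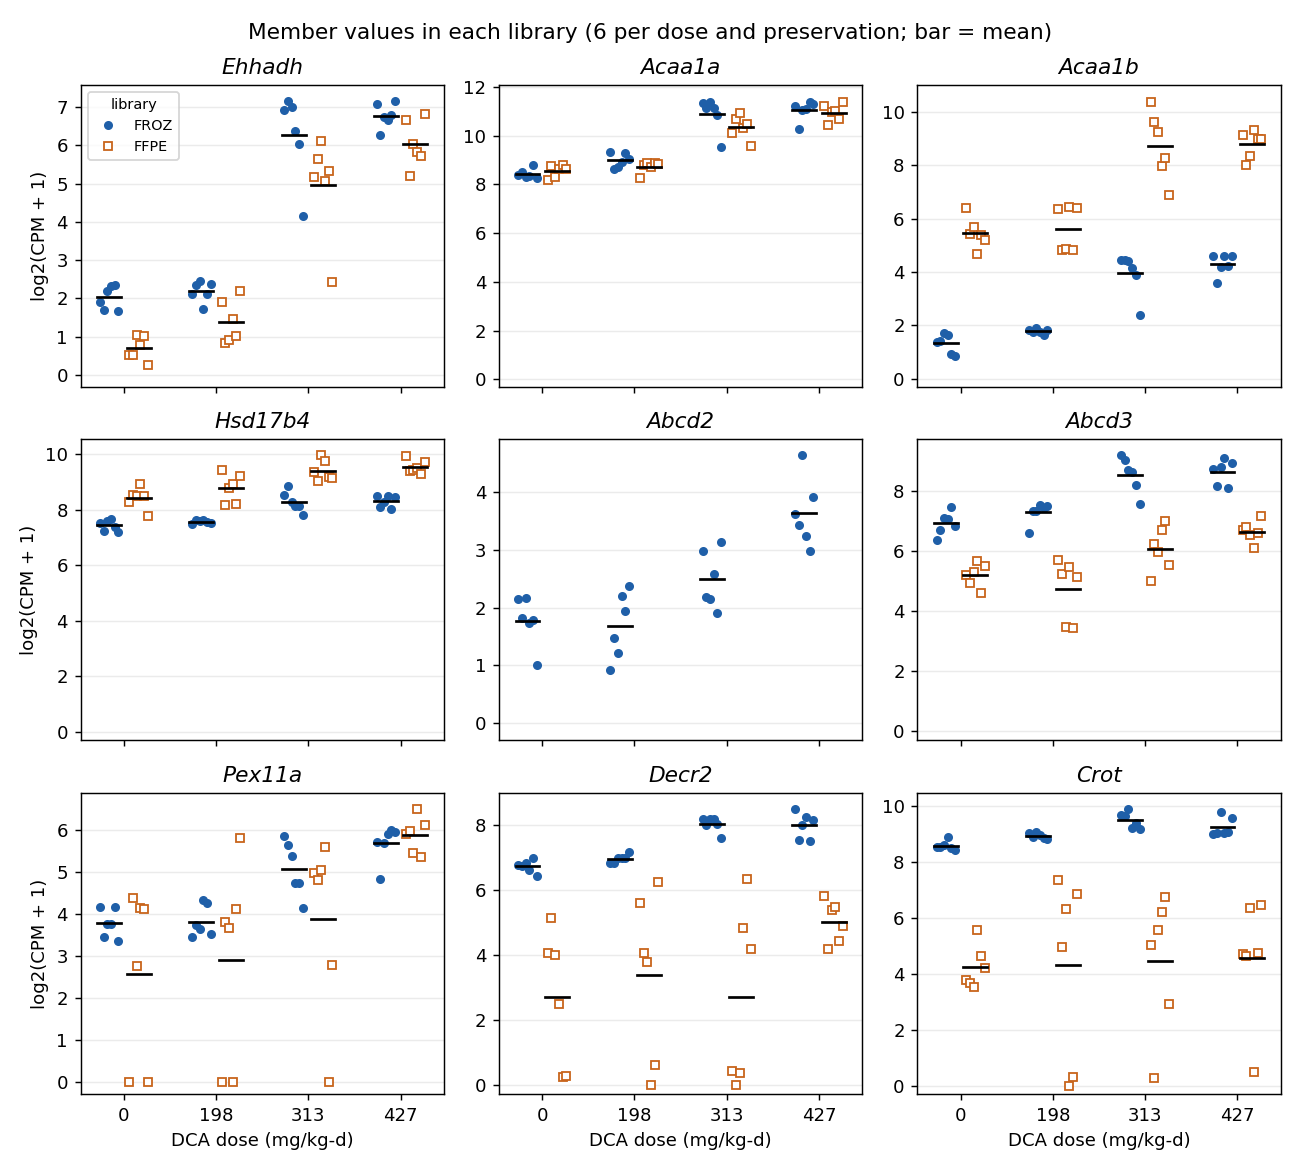
Each point is 1 library, with the DCA dose on the x axis and log2(CPM + 1) on the y axis, filled circles for FROZ, open squares for FFPE and black bars for group means. Ehhadh, Acaa1a and Acaa1b separate at 313 and 427 mg/kg-d in both tables, while Pex11a, Decr2 and Crot have FFPE libraries at or near 0. Ehhadh also has FFPE libraries near 0 in vehicle controls. FROZ and FFPE values were scaled separately, and their heights are not comparable.

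Ehhadh (chr16:21761287-21787807, GRCm38, minus strand), the bifunctional hydratase and dehydrogenase of the inducible pathway, had the largest change. Its FROZ log2(CPM + 1) was 1.68 to 2.34 in vehicle controls (median 2.05) and 1.73 to 2.45 at 198 mg/kg-d (median 2.24). At 313 mg/kg-d it was 4.15 to 7.15 (median 6.65), and at 427 mg/kg-d 6.27 to 7.14 (median 6.75). The vehicle and 198 mg/kg-d groups overlapped, and every library of the upper doses lay above both. The log2 fold change was 0.16 ± 0.31 (SE, FDR = 0.85) at 198 mg/kg-d, 4.25 ± 0.31 (FDR = 2.6e-10) at 313 mg/kg-d and 4.75 ± 0.31 (FDR = 1.2e-11) at 427 mg/kg-d, the last equal to 26.9-fold on the CPM + 1 scale with a 95% interval of 17.2 to 42.0. The step from 198 to 313 mg/kg-d was 4.08 ± 0.31 (FDR = 1.8e-09), and that from 313 to 427 mg/kg-d was 0.50 ± 0.31 (FDR = 0.42).

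Hsd17b4, the second bifunctional enzyme of the organelle, which also serves branched chains and bile acid precursors, changed far less. FROZ values were 7.20 to 7.68 in vehicle controls (median 7.44), 7.48 to 7.64 at 198 mg/kg-d (median 7.57), 7.81 to 8.84 at 313 mg/kg-d (median 8.20) and 8.02 to 8.50 at 427 mg/kg-d (median 8.36). Both upper groups lay wholly above the controls. The log2 fold change was 0.13 ± 0.13 (FDR = 0.64), 0.84 ± 0.13 (FDR = 1.6e-05) and 0.86 ± 0.13 (FDR = 6.1e-06), which is 1.82-fold at the top dose. Its 95% interval at 427 mg/kg-d, 0.61 to 1.12, lay far below that of Ehhadh, 4.10 to 5.39.

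The thiolases Acaa1a and Acaa1b, which cleave acetyl-CoA from the shortened chain, both rose as listed. Their sequences are alike, and whether the rise of Acaa1b is separate from that of Acaa1a was not tested. Acaa1a in FROZ was 8.26 to 8.78 in vehicle controls (median 8.38), 8.64 to 9.32 at 198 mg/kg-d (median 8.98), 9.52 to 11.4 at 313 mg/kg-d (median 11.1) and 10.3 to 11.4 at 427 mg/kg-d (median 11.2). At 198 mg/kg-d 4 of 6 mice lay above all controls and the log2 fold change was 0.56 ± 0.23 (FDR = 0.20), and at the upper doses all mice did, with 2.47 ± 0.23 (FDR = 1.6e-08) and 2.63 ± 0.23 (FDR = 1.3e-09). Acaa1b was 0.83 to 1.72 in vehicle controls (median 1.39), 1.62 to 1.91 at 198 mg/kg-d (median 1.78), 2.37 to 4.47 at 313 mg/kg-d (median 4.27) and 3.57 to 4.59 at 427 mg/kg-d (median 4.41). Its control values stood on 7.00 to 21.0 reads per library, with a median of 1.63 CPM, so the offset of 1 CPM limits its fold changes. At 198 mg/kg-d 5 of 6 mice lay above all controls for Acaa1b. Its log2 fold changes were 0.46 ± 0.26 (FDR = 0.37), 2.63 ± 0.26 (FDR = 3.7e-08) and 2.97 ± 0.26 (FDR = 1.3e-09). The intervals of the thiolases at 427 mg/kg-d overlapped (2.16 to 3.09 for Acaa1a and 2.45 to 3.50 for Acaa1b), and both lay below that of Ehhadh. Fitted to only the 2 groups compared, Acaa1a passed at 198 mg/kg-d (FDR = 0.047).

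The genes of this pair are close copies on chromosome 9. Acaa1a lies at chr9:119339676-119350299 on the plus strand and Acaa1b at chr9:119148023-119157093 on the minus strand (GENCODE vM21, GRCm38, the mm10 build of the authors' alignment). Their coding sequences are 1272 bases each, of which 1228 are identical (96.5%), with 44 mismatches, no gap and a longest identical run of 327 bases. Of the 50-base windows of the Acaa1b transcripts, 30.5% also occur in Acaa1a transcripts. Of the other members, Ehhadh, Hsd17b4 and Pex11a share no such window with another gene, and Abcd2, Abcd3, Decr2 and Crot share 0.441, 0.181, 1.77 and 2.02% of theirs. To show how the pair can be told apart, the 100 coding bases of exon 1 with the most differences are given 5′ to 3′, with the 7 bases that differ in capitals, at chr9:119341578-119341677 for Acaa1a and chr9:119156832-119156931 for Acaa1b, followed by 100 coding bases of exon 11 that are the same in both (chr9:119349526-119349625 and chr9:119148746-119148845).
Acaa1a exon 1: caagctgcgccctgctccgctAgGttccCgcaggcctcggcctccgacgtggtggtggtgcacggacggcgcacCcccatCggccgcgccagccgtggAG
Acaa1b exon 1: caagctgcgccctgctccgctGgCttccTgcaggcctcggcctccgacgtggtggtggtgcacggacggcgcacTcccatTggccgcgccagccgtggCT
Both, exon 11: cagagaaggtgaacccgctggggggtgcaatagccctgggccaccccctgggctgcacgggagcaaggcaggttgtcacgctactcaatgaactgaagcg
The positions of the detector oligos on these transcripts were not used here, so whether they tell the genes apart was not tested.

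The split of reads between the thiolases differed between the tables. Acaa1b held 0.208 to 0.724% of the summed CPM of the pair in FROZ vehicle controls and 0.651 to 1.03% at 427 mg/kg-d. In FFPE it held 5.71 to 22.5% in vehicle controls, 5.53 to 20.5% at 198 mg/kg-d, 13.2 to 54.7% at 313 mg/kg-d and 14.0 to 23.9% at 427 mg/kg-d. Every FFPE library lay above every FROZ library in this share, which is a ratio within a library and does not depend on the scaling. Levels and fold changes of each thiolase alone, and so the counts that include both, are uncertain for genes so alike. Preservation, extraction and lobe cannot be told apart as sources of the difference.

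The region before the start was read for motifs in the members with a promoter at hand, whatever the size of their change. These members rose at the same doses in FROZ. RefSeq promoters of 7 of the 9 members were at hand, without Hsd17b4 and Abcd2. In the 250 bases before the start, the AGGTCA core of nuclear receptor sites was found in 0 of 7 members (14.0% of 32851 promoters of all genes), and AGGNCANAGGNCA, cores 1 base apart as in Ppara response elements, also in 0 of 7 (0.338%). GGGCGG, the GC box, was found in 4 of 7 members (Acaa1a, Crot, Decr2 and Ehhadh, 32.7% of all promoters), CCAAT in 4 of 7 (Acaa1a, Acaa1b, Crot and Ehhadh, 33.9%) and TATAAA in 0 of 7 (12.4%). Both strands were searched, so CCAAT also appears as ATTGG, and no matched motifs overlap in the sequences shown. The starts are those of RefSeq. That of Acaa1a lies inside the gene span given above and that of Ehhadh beyond it, while that of Acaa1b is at its end. The promoters of the bifunctional enzyme and the thiolases follow, 5′ to 3′ on the strand of the gene. Each ends at the base before the RefSeq start, with matches to any of these motifs in capitals.
Ehhadh, GRCm38.p6 chr16:21787835-21788084, minus strand: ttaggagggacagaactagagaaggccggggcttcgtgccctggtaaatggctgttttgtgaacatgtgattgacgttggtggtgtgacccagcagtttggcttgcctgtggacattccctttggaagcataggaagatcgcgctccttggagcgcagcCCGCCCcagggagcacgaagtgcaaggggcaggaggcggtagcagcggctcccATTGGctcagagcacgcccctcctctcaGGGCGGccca
Acaa1a, GRCm38.p6 chr9:119341044-119341293, plus strand: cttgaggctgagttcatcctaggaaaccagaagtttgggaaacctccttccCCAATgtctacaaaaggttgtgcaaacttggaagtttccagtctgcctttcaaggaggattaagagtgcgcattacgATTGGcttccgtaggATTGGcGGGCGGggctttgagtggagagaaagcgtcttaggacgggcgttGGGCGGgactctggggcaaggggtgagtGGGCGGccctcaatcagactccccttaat
Acaa1b, GRCm38.p6 chr9:119157094-119157343, minus strand: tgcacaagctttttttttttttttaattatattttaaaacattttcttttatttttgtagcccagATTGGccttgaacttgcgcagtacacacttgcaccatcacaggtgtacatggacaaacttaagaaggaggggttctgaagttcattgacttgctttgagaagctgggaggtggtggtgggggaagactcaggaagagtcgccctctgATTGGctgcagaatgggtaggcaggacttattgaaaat
Their GC content was 60.4, 53.6 and 41.6%, where the median of all promoters was 52.4%. A match is a description of letters, and its absence says only that the letters are not in this window.

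Of the transporters, Abcd3 rose at both upper doses and Abcd2 at 427 mg/kg-d, and the difference between them was not tested. Abcd3, an abundant fatty acid transporter of hepatic peroxisomes, was 6.35 to 7.45 in FROZ vehicle controls (median 6.95), 6.59 to 7.52 at 198 mg/kg-d (median 7.37), 7.54 to 9.17 at 313 mg/kg-d (median 8.65) and 8.07 to 9.08 at 427 mg/kg-d (median 8.76). Its log2 fold change was 0.36 ± 0.23 (FDR = 0.44), 1.62 ± 0.23 (FDR = 8.1e-06) and 1.71 ± 0.23 (FDR = 1.8e-06). Abcd2, which carries very long-chain and polyunsaturated acyl-CoAs, was low, at 0.998 to 2.16 in vehicle controls (median 1.80), 0.919 to 2.38 at 198 mg/kg-d (median 1.71), 1.91 to 3.14 at 313 mg/kg-d (median 2.38) and 2.99 to 4.64 at 427 mg/kg-d (median 3.52). Only the top dose lay wholly above the controls. Its log2 fold change was -0.086 ± 0.27 (FDR = 0.92), 0.71 ± 0.27 (FDR = 0.054) and 1.87 ± 0.27 (FDR = 7.8e-06). At 313 mg/kg-d its value lay close to the FDR limit. It passed when vehicle animal 3, vehicle animal 5 or animal 77 was left out (0.79, 0.79 and 0.83, FDR = 0.048, 0.044 and 0.032). It also passed with a filter on a mean of 1 CPM (FDR = 0.0499) and when fitted to only the 2 groups compared (FDR = 0.032). Without animal 78, the highest of its group for Abcd2, the change was 0.58 (FDR = 0.13). Leaving out 1 library at a time, it ran from 0.56 to 0.83.

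Pex11a, the membrane protein of peroxisome growth, was 3.35 to 4.16 in FROZ vehicle controls (median 3.76), 3.43 to 4.33 at 198 mg/kg-d (median 3.67), 4.14 to 5.84 at 313 mg/kg-d (median 5.05) and 4.83 to 5.99 at 427 mg/kg-d (median 5.80). At 313 mg/kg-d 5 of 6 mice lay above all controls, and at 427 mg/kg-d all did. The log2 fold change was 0.040 ± 0.24 (FDR = 0.96), 1.30 ± 0.24 (FDR = 2.1e-04) and 1.90 ± 0.24 (FDR = 8.4e-07). Decr2, the dienoyl-CoA reductase, was 6.42 to 6.99 in vehicle controls (median 6.75), 6.83 to 7.16 at 198 mg/kg-d (median 6.97), 7.58 to 8.18 at 313 mg/kg-d (median 8.10) and 7.51 to 8.48 at 427 mg/kg-d (median 8.08). Its log2 fold change was 0.23 ± 0.14 (FDR = 0.39), 1.30 ± 0.14 (FDR = 1.1e-07) and 1.26 ± 0.14 (FDR = 6.1e-08). Crot, the carnitine octanoyltransferase, was 8.46 to 8.92 in vehicle controls (median 8.55), 8.84 to 9.09 at 198 mg/kg-d (median 8.94), 9.18 to 9.90 at 313 mg/kg-d (median 9.54) and 9.01 to 9.81 at 427 mg/kg-d (median 9.08). Its log2 fold change was 0.35 ± 0.13 (FDR = 0.16), 0.91 ± 0.13 (FDR = 1.1e-05) and 0.67 ± 0.13 (FDR = 2.7e-04), the smallest of the members at the top dose.

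**Figure D2:**
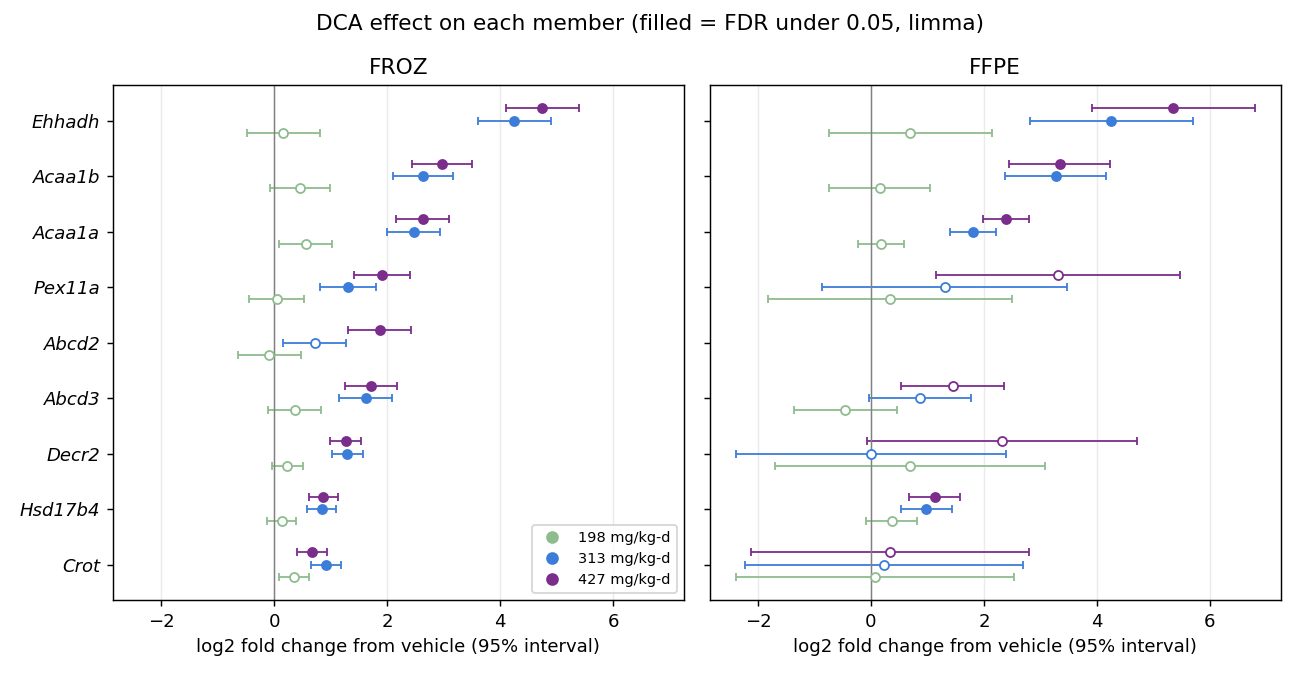
Log2 fold change from vehicle controls on the x axis, with the 95% interval of limma, for each member on the y axis and each dose by colour, filled where FDR was under 0.05. In FROZ the values at 198 mg/kg-d are all open and those at 427 mg/kg-d all filled, and in FFPE only Ehhadh, Acaa1a, Acaa1b and Hsd17b4 are filled at the upper doses.

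In order of the FROZ change at 427 mg/kg-d the members ran Ehhadh, Acaa1b, Acaa1a, Pex11a, Abcd2, Abcd3, Decr2, Hsd17b4 and Crot. The offset of 1 CPM lowers the changes of Ehhadh, Acaa1b and Abcd2 most, with vehicle medians of 3.17, 1.63 and 2.48 CPM. The order was not compared at another offset. Ehhadh stood clear of its neighbour Acaa1b (2.45 to 3.50), whereas the 95% intervals of every other pair of neighbours overlapped. Most of the difference between doses fell between 198 and 313 mg/kg-d. Over this step 8 of 9 members rose (8.05% of all genes), from 0.56 ± 0.13 for Crot (FDR = 0.0053) to 4.08 ± 0.31 for Ehhadh, while the step of Abcd2 was 0.80 ± 0.27 (FDR = 0.057, or 0.048 with an offset of 0.1 CPM). From 313 to 427 mg/kg-d 1 of 9 rose (1.73% of all genes), which was Abcd2 at 1.15 ± 0.27 (FDR = 0.018), and Pex11a had 0.60 ± 0.24 (FDR = 0.18). For Decr2 this step was -0.031 with a 95% interval of -0.31 to 0.25, and for Crot -0.24 with an interval of -0.51 to 0.029. Whether the step of Abcd2 differs from those of the other members was not tested, and steps and effects share the libraries of a dose.

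The members' values differed between the mice of a dose. At 313 mg/kg-d, animal 78 had the lowest FROZ value of its group for 8 of 9 members and the highest for Abcd2. Its Ehhadh was 4.15 where the other 5 mice were at 6.03 to 7.15, its Acaa1a 9.52 against 10.9 to 11.4, its Acaa1b 2.37 against 3.90 to 4.47 and its Decr2 7.58 against 7.99 to 8.18. Averaged over the members it stood 0.94 above the vehicle mean on the log2 scale, where the other 5 stood 1.57 to 2.23 above it. The FFPE library of the same mouse was lowest for 3 of 8 members, as many as that of animal 74. These were Ehhadh (2.43 against 5.06 to 6.11), Acaa1a (9.58 against 10.1 to 10.96) and Acaa1b (6.87 against 7.96 to 10.4) for animal 78. Over the members animal 78 stood at 0.70 in FFPE, against 1.06 to 2.32. The depth of its libraries lay within the range of the tables, at 7.66 M reads in FROZ and 4.80 M reads in FFPE, where 167 genes were at 0, the fewest of its group. Without it, the log2 fold change of Ehhadh at 313 mg/kg-d was 4.67 ± 0.19 in FROZ and 4.76 ± 0.70 in FFPE, and 8 of 9 and 4 of 8 members rose as before. At 427 mg/kg-d animal 98 was the lowest in FROZ, at 1.58 where the others were at 1.90 to 2.34. In FFPE animal 100 was lowest at 2.05 and animal 98 was at 2.10. Among the FROZ controls animal 8 had the lowest value for 8 of 9 members. The share of all genes that were lowest in animal 78 or animal 8 was not counted, so these counts may not be particular to the members.

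**Figure D3:**
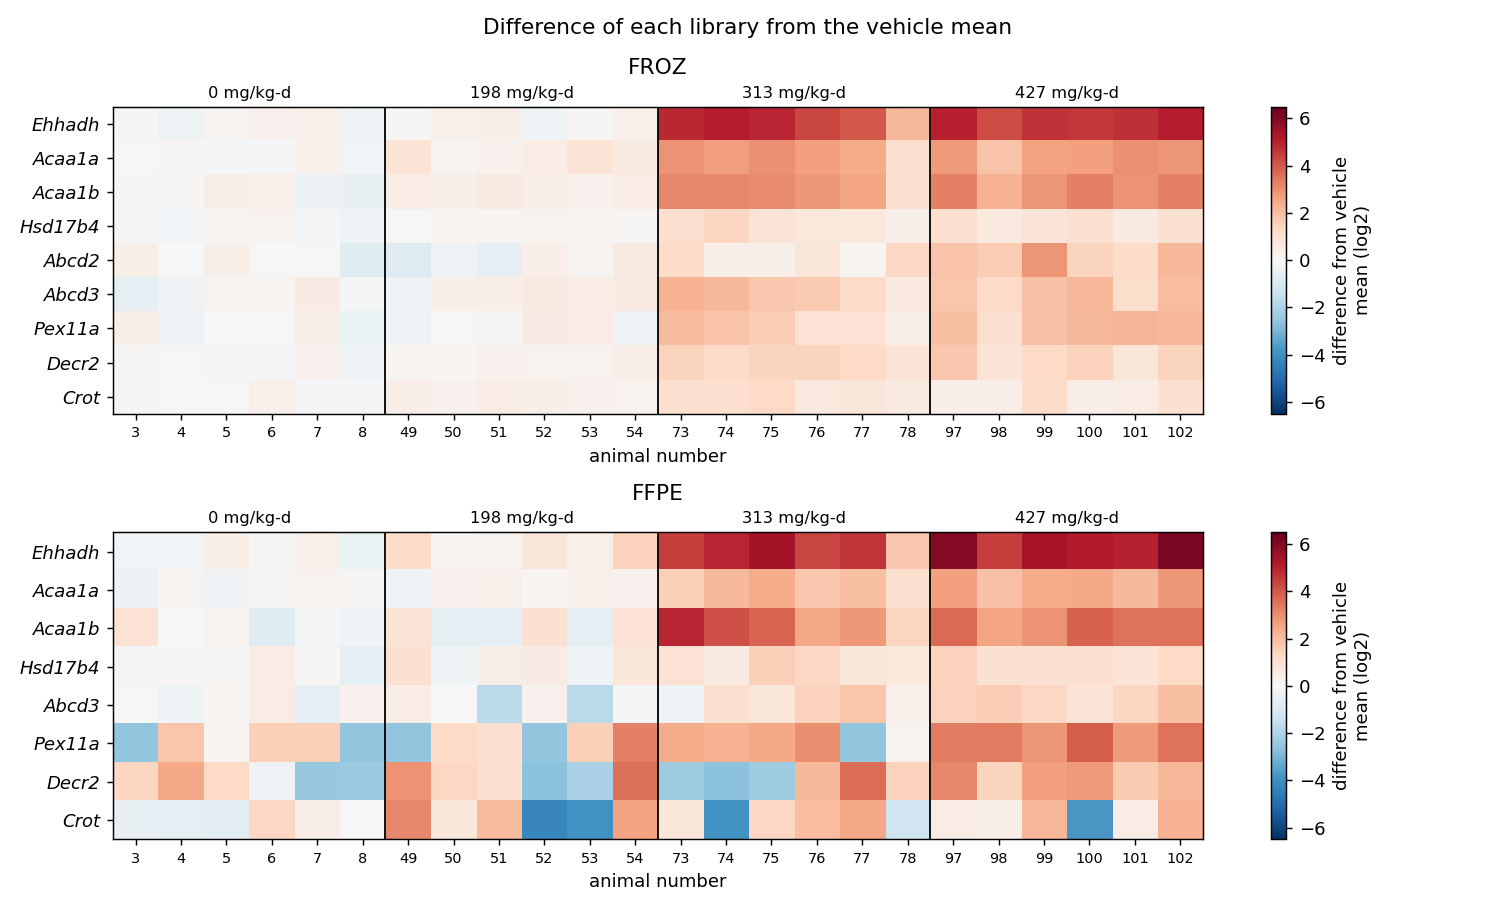
Colour gives the difference of each library from the vehicle mean of the gene on the log2 scale, with animals on the x axis by dose and members on the y axis, for FROZ above and FFPE below. Animal 78 at 313 mg/kg-d is paler than its group for Ehhadh and the thiolases in both tables, and the FFPE rows of Pex11a, Decr2 and Crot mix high and low libraries, except Pex11a and Decr2 at 427 mg/kg-d and Crot in vehicle controls.

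In FFPE, the same comparison asked how much of this pattern could be read from aged fixed tissue. No member passed at 198 mg/kg-d by limma (0 of 8, where 0.03% of all genes rose). An unadjusted limma p under 0.05 was reached at that dose by 0 of 8 members and by 785 of 6673 genes, in either direction. At 313 mg/kg-d 4 of 8 rose (0.764% of all genes), and at 427 mg/kg-d 4 of 8 rose (1.54% of all genes). These were Ehhadh, Acaa1a, Acaa1b and Hsd17b4 at either dose. Higher DEGs numbered 3 at 313 mg/kg-d (0.584% of all genes) and 4 at 427 mg/kg-d (1.23% of all genes), and no member fell at the top dose (0.869% of all genes). All treated mice lay above all controls for 4 of 8 members at 313 mg/kg-d (0.959% of all genes) and 6 of 8 at 427 mg/kg-d (2.94% of all genes). The median log2 fold change of the listed members was 0.26, 1.14 and 2.36 at the rising doses, and that of all genes -0.19, -0.12 and 0.18. The members' medians leave out Abcd2 and include Pex11a and Decr2, which had libraries at or near 0 below the top dose. They are therefore not comparable with the FROZ medians. Over the step from 198 to 313 mg/kg-d 3 of 8 rose (0.809% of all genes), and from 313 to 427 mg/kg-d 0 of 8 did (0.12% of all genes). An unadjusted limma p under 0.05 was reached in the last step by 1 of 8 members and by 649 of 6673 genes, in either direction.

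Ehhadh in FFPE was 0.261 to 1.06 in vehicle controls (median 0.657), 0.826 to 2.20 at 198 mg/kg-d (median 1.24), 2.43 to 6.11 at 313 mg/kg-d (median 5.24) and 5.21 to 6.82 at 427 mg/kg-d (median 5.93). The control values stood on about 1 to 6 reads per library, so the offset of 1 CPM limits the fold change. Those of vehicle animals 3, 4 and 8 stood on about 2, 2 and 1 reads, under the limit of 3 reads for detection. The log2 fold change was 0.69 ± 0.71 (FDR = 0.73), 4.26 ± 0.71 (FDR = 3.2e-04) and 5.35 ± 0.71 (FDR = 4.1e-06). Acaa1a was 8.19 to 8.79 in vehicle controls (median 8.65), 8.29 to 8.89 at 198 mg/kg-d (median 8.83), 9.58 to 10.96 at 313 mg/kg-d (median 10.4) and 10.4 to 11.4 at 427 mg/kg-d (median 10.99), with log2 fold changes of 0.18 ± 0.20, 1.80 ± 0.20 (FDR = 2.7e-07) and 2.39 ± 0.20 (FDR = 3.0e-10). Acaa1b was 4.65 to 6.42 in vehicle controls (median 5.41), 4.81 to 6.44 at 198 mg/kg-d (median 5.60), 6.87 to 10.4 at 313 mg/kg-d (median 8.76) and 8.02 to 9.32 at 427 mg/kg-d (median 8.99), with 0.15 ± 0.44, 3.27 ± 0.44 (FDR = 1.0e-05) and 3.34 ± 0.44 (FDR = 3.7e-06). For these 3 genes the upper doses lay wholly above the controls and 198 mg/kg-d did not.

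Hsd17b4 in FFPE was 7.79 to 8.92 in vehicle controls (median 8.50), 8.15 to 9.42 at 198 mg/kg-d (median 8.85), 9.01 to 9.95 at 313 mg/kg-d (median 9.27) and 9.30 to 9.91 at 427 mg/kg-d (median 9.46). Its log2 fold change was 0.36 ± 0.22 (FDR = 0.52), 0.98 ± 0.22 (FDR = 0.016) and 1.13 ± 0.22 (FDR = 0.0017). The call at 313 mg/kg-d was lost without vehicle animal 8 (FDR = 0.060), without animal 75 (FDR = 0.072), without the libraries with over 10% of genes at 0 (FDR = 0.098) and with a variance prior that does not follow the mean (FDR = 0.12). Abcd3 was 4.60 to 5.66 in vehicle controls (median 5.25), 3.45 to 5.68 at 198 mg/kg-d (median 5.18), 4.99 to 6.98 at 313 mg/kg-d (median 6.10) and 6.10 to 7.17 at 427 mg/kg-d (median 6.63). All 6 mice at the top dose lay above the controls, but its log2 fold change of 1.45 ± 0.45 did not pass the test (FDR = 0.094).

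The remaining members, like Ehhadh in vehicle controls, had FFPE libraries at or close to 0. There a value of 0 allows up to 3 reads, a log2(CPM + 1) of 0.585 to 1.40 by library. Pex11a was at 0 in 2 of 6 vehicle libraries, 2 of 6 at 198 mg/kg-d and 1 of 6 at 313 mg/kg-d, and reached 4.37, 5.81 and 5.58 in the highest library of these groups. At 427 mg/kg-d all 6 libraries were at 5.34 to 6.49, and the log2 fold change was 3.31 ± 1.06 (FDR = 0.12). Decr2 ran from 0.229 to 5.13 in vehicle controls, from 0 to 6.25 at 198 mg/kg-d, from 0 to 6.34 at 313 mg/kg-d and from 4.16 to 5.81 at 427 mg/kg-d, with log2 fold changes of 0.68 ± 1.17, -0.0064 ± 1.17 and 2.32 ± 1.17 (FDR = 0.62 at the top dose). Crot ran from 3.54 to 5.59 in vehicle controls, from 0 to 7.38, from 0.282 to 6.75 and from 0.483 to 6.48 at the rising doses, with 0.068 ± 1.21, 0.23 ± 1.21 and 0.33 ± 1.21, and its 95% interval at 427 mg/kg-d of -2.13 to 2.79 contains the FROZ value of 0.67. The calls of these genes and Abcd3 at 427 mg/kg-d depended on the libraries and the variance model. Without the libraries with over 10% of genes at 0, which kept 5, 2, 3 and 6 libraries, Pex11a and Abcd3 passed at 2.80 ± 0.68 (FDR = 0.016) and 1.45 ± 0.34 (FDR = 0.012). Fitted to only the 2 groups compared, with all their libraries, they passed at 3.31 ± 0.75 (FDR = 0.0085) and 1.45 ± 0.27 (FDR = 0.0013). With array quality weights Decr2 passed as well (2.58 ± 0.73, FDR = 0.018), and 7 of 8 members rose. The share of all genes that rose with these weights was not counted, so this count has no background beside it.

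The effect of DCA was then compared between FFPE and FROZ within each mouse. None of the 8 members listed in both tables differed by limma at 198, 313 or 427 mg/kg-d (0 of 8 at each, with 0.0303, 0 and 0.0303% of 6591 genes called). An unadjusted limma p under 0.05 was reached by 0, 1 and 0 of 8 members, and by 750, 487 and 146 of 6591 genes. For Ehhadh the FFPE minus FROZ difference of the log2 fold change was 0.013 with a 95% interval of -0.62 to 0.64 at 313 mg/kg-d and 0.60 with an interval of -0.028 to 1.23 at 427 mg/kg-d. With an offset of 0.1 CPM in place of 1 CPM these became 0.86 ± 0.40 (SE, FDR = 0.67) and 1.48 ± 0.40 (FDR = 1.00), so the size of the Ehhadh difference depends on the offset. For Acaa1a it was -0.66 (-1.22 to -0.11, FDR = 0.64) and -0.23 (-0.79 to 0.32), and for Acaa1b 0.63 (-0.15 to 1.42) and 0.37 (-0.41 to 1.16). Hsd17b4 had 0.13 (-0.45 to 0.72) and 0.26 (-0.32 to 0.85), and Abcd3 -0.75 (-1.84 to 0.34) and -0.27 (-1.36 to 0.82). The intervals of Pex11a, Decr2 and Crot at 427 mg/kg-d were wide, at -0.76 to 3.58, -1.45 to 3.56 and -3.00 to 2.33, so that differences of several fold in either table were not detectable for these genes.

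The rest of the organelle changed less broadly than the members, by counts of genes that rose alone. The other beta-oxidation genes held higher DEGs as well. Over all FROZ genes at 427 mg/kg-d, 22.7% rose and 7.33% fell, and after median-ratio scaling 1423 rose and 1424 fell of 11275. In FFPE 1.54% of all genes rose and 0.869% fell, and after that scaling 86 rose and 79 fell of 6673. Of 21 other genes of peroxisomal beta-oxidation, 17 were listed in FROZ, of which 9 rose and 1 fell at 427 mg/kg-d. Higher DEGs numbered 5 of these 17 (2.26% of all genes). The median log2 fold change was 0.46, and 7 rose and 4 fell after median-ratio scaling. Acot3, a peroxisomal acyl-CoA thioesterase, rose by 8.02 ± 0.45 at 427 mg/kg-d in FROZ, more than any member, Crat, the carnitine acetyltransferase, by 2.63 ± 0.24, and Eci2, an enoyl-CoA isomerase, by 1.90 ± 0.16. The gene that fell was Acox3, an acyl-CoA oxidase, at -0.35 ± 0.10 (FDR = 0.013). In FFPE, 5 of 16 listed genes rose at 427 mg/kg-d, Eci2, Acot3, Crat and Slc27a2 among them, all 5 as DEGs (1.23% of all genes). None fell, and after median-ratio scaling 5 rose and 2 fell.

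Genes of peroxisome assembly and division moved by small amounts. All 22 of the list were measured in FROZ, where 14 rose at 427 mg/kg-d (22.7% of all genes), none as a DEG (2.26% of all genes). Their median log2 fold change was 0.39, and 11 rose after median-ratio scaling (1423 of 11275 genes). Pex19, the chaperone of membrane proteins, had 0.84 ± 0.12 and Acbd5, a tether to the endoplasmic reticulum, 0.83 ± 0.18. The FFPE table held 18 of them, and 1 rose at 427 mg/kg-d (1.54% of all genes). This was Pex16, a membrane assembly factor, at 0.95 ± 0.21 (FDR = 0.0073). Of 22 other matrix enzymes, 20 were listed in FROZ, where 9 rose (22.7% of all genes) and 1 fell (7.33%) with a median of 0.21. After median-ratio scaling 7 rose and 5 fell (1423 and 1424 of 11275 genes). Uox, the urate oxidase, had 1.37 ± 0.14, Lonp2, the peroxisomal protease, 1.01 ± 0.15, and Mlycd, the malonyl-CoA decarboxylase, 0.95 ± 0.12, whereas Cat, the catalase, which serves as the common marker of the organelle, was at 0.18 ± 0.093 (FDR = 0.14). The gene that fell was Agxt, an aminotransferase of glyoxylate, at -0.46 ± 0.14 (FDR = 0.012). In FFPE 3 of 18 (Uox, Lonp2 and Ephx2) rose (1.54% of all genes) and none fell (0.869%).

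Among the receptor and its partners, 4 of 8 rose (22.7% of all genes) and 1 fell (7.33%) at 427 mg/kg-d in FROZ. After median-ratio scaling 1 rose and 1 fell (1423 and 1424 of 11275 genes). Ppara had a mean of 8.38 ± 0.37 (SD) in vehicle controls and 8.77 ± 0.22 at 427 mg/kg-d, which differ by 0.39 ± 0.15 (FDR = 0.043), with 0.0019 and 0.019 at the lower doses. In FFPE its change at 427 mg/kg-d was 0.36 ± 0.28 (FDR = 0.94). Ppard, a related receptor, fell by 1.84 ± 0.21 in FROZ (FDR = 2.0e-07) and by 1.96 ± 0.37 in FFPE (FDR = 0.0012). Nr1h4, the bile acid receptor, rose by 0.97 ± 0.085 in FROZ, Hnf4a, a hepatocyte transcription factor, by 0.45 ± 0.12 and Med1, a coactivator subunit, by 0.39. After median-ratio scaling Nr1h4 rose by 0.83, while Ppara (0.24, FDR = 0.22), Hnf4a (0.31, FDR = 0.053) and Med1 (0.24, FDR = 0.068) did not pass. Of the markers of other liver cells, 5 of 7 listed Kupffer cell markers (Cd5l, Adgre1, Csf1r, C1qa and C1qb) fell in FROZ at 427 mg/kg-d (7.33% of all genes). The sum of the 7 was 133 to 205 CPM there, against 214 to 289 CPM in vehicle controls. In FFPE 0 of 4 listed passed (0.869% of all genes fell), with sums of 158 to 226 CPM and 252 to 477 CPM. Their part in the members' values was not tested.

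**Figure D4:**
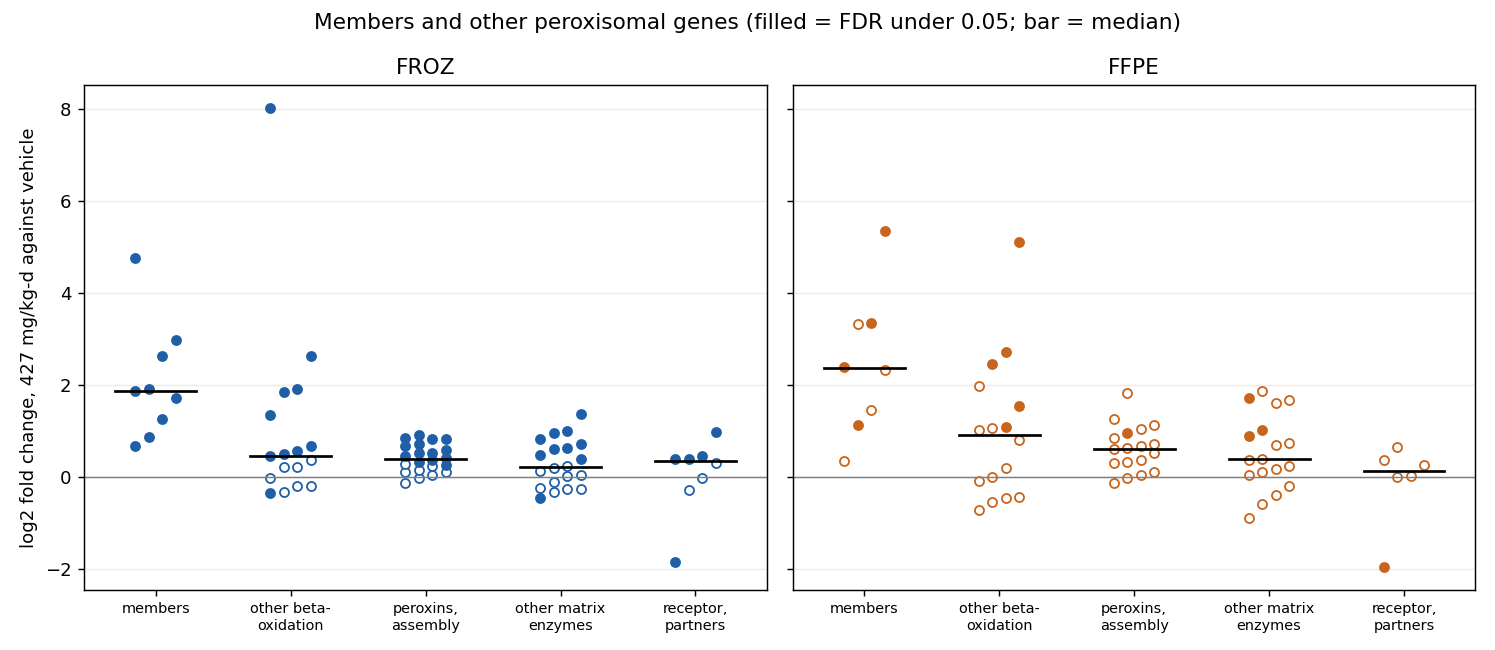
Log2 fold change at 427 mg/kg-d against vehicle controls on the y axis for each gene of the members and of the other peroxisomal lists, FROZ on the left and FFPE on the right, filled where FDR was under 0.05, with bars at list medians. The FROZ medians are 1.87 for the members, 0.46 for other beta-oxidation genes, 0.39 for assembly genes, 0.21 for matrix enzymes and 0.35 for the receptor list.

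Genes whose FROZ pattern was closest to a member were found by the root mean square (RMS) difference of the log2 values over 24 libraries, after the vehicle mean of each gene was taken out. Closest to Ehhadh were Acot2 (RMS difference 0.52), Acot1 (0.52) and Cyp4a31 (0.60), the first 2 being acyl-CoA thioesterases and the last a fatty acid hydroxylase, with log2 fold changes of 4.96, 5.41 and 4.95 at 427 mg/kg-d. The nearest member to Ehhadh was Acaa1b, at 1.24. The thiolases had the same neighbours, Retsat (0.38 to either), Pctp (0.44 to Acaa1a and 0.27 to Acaa1b) and Serinc2 (0.43 and 0.47), and stood 0.35 from each other. Among the genes closest to Abcd3 were Hsdl2 (0.31) and Prune1 (0.31), and among those closest to Pex11a Mgll (0.30) and Hsd17b11 (0.34). Decr2 was closest to the mitochondrial enzymes Cpt2 (0.23) and Acadm (0.24) and to Gstm4 (0.24). Closest to Abcd2 were Gstt3 (0.49), Vldlr (0.50) and Nfe2l2 (0.51). This distance uses the same libraries and the size of the change, and is given as a description.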

How the data were processed

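TempO-Seq tables of 24 FROZ and 24 FFPE mouse liver libraries were used. The deposited values are log2(CPM + 1), for which the authors aligned reads to mm10 with STAR in Partek Flow, counted RefSeq transcripts by expectation maximization, dropped genes whose geometric mean did not exceed 1, scaled to CPM in each table separately and added an offset of 1. Abundant transcripts were attenuated in the assay. Libraries were grouped by dose and preservation and paired by animal number, since both libraries of a number come from 1 mouse. Over 4815 genes, 21 of 24 animals had their FROZ deviation best matched by their own FFPE library (median r of 0.128, against -0.0232 for other animals of the dose).

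The reads on listed genes were recovered from the CPM of 1 read, the step of the low values (0.102 to 0.150 CPM in FROZ, 0.167 to 0.546 CPM in FFPE). Within a tolerance of 0.05 reads, 96.3 to 97.2% of low values in FROZ and 84.1 to 95.5% in FFPE were whole, since expectation maximization need not give whole reads. A CPM under that of 3 reads was taken as undetectable, a limit that covers counting error only, as reads carry no molecular identifiers.

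DCA effects and steps between doses were tested with limma 3.58.1 in R 4.3.3 on the 24 libraries of a table, with a mean-dependent variance prior and Benjamini-Hochberg adjustment over all genes. Preservations were compared by fitting limma to each animal's FFPE value less its FROZ value. The fit was tested on simulated data. Positions and transcripts came from GENCODE vM21, promoters from RefSeq (GRCm38.p6), and coding sequences were aligned with Biopython 1.88. Named beside the members were Ppara, the 3 genes of each list with the largest change at 427 mg/kg-d in FROZ among those with an FDR under 0.05, and the 3 genes nearest to each member that was a DEG there, apart from some genes that are not reported here. Cat and the other genes called in a list were named after their values were seen. The members, lists and tests were chosen with earlier results of these data known. Other offsets, filters, scalings, variance models and sets of libraries were tried as alternatives. Of the other marker lists, at most 1 stellate marker rose and 1 fell at a dose in FROZ, and at most 1 endothelial marker fell. In FFPE 0 of these passed, and 0 cholangiocyte and 0 lymphocyte markers passed in either table.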

Additional observations from a re-analysis of the deposited data

Results flagged for a closer look

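Of 68 groups of 6 libraries, 12 held a library far from the other 5, its gap to the nearest exceeding Dixon's 95% limit for the range of the group, where chance gives about 1 in 20. The libraries of 1 mouse share this test across genes and are not independent. Animal 78 at 313 mg/kg-d accounted for 5 of them, low in FROZ for Ehhadh (4.15), Acaa1a (9.52), Acaa1b (2.37) and Decr2 (7.58), and low in FFPE for Ehhadh (2.43). Animal 98 at 427 mg/kg-d was low in FROZ for Acaa1a (10.3, the others from 11.1) and Pex11a (4.83, the others from 5.67). Animal 49 at 198 mg/kg-d was low for Abcd3 in FROZ (6.59, the others from 7.32) and for Acaa1a in FFPE (8.29, the others from 8.71), the latter in the library with 1589 genes at 0. Among vehicle controls, animal 8 was low for Abcd2 in FROZ (0.998, the others from 1.74) and animal 6 high for Crot in FROZ (8.92, the others up to 8.61). In FFPE, animal 100 at 427 mg/kg-d was low for Crot (0.483, about 2 reads, the others from 4.64).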

How the results depend on the processing

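Every FROZ call of a member kept its direction and its side of the FDR limit under the alternatives run, while values near 0 at 198 mg/kg-d, Abcd2 at 313 mg/kg-d and in the step to it, and several FFPE values depend on the setting. Without the replicate block, 0 members differed between preservations at each dose, as with it. In paired fits, the FFPE minus FROZ difference at 313 mg/kg-d was -0.0068 for Ehhadh when both tables were rescaled to shared genes and 0.50 or 0.12 for Pex11a with an offset of 0.1 CPM or median-ratio scaling, and at 427 mg/kg-d it was -0.21 for Acaa1b with the smaller offset. With that offset the FFPE change of Crot was -0.72 at 198 and -0.063 at 313 mg/kg-d. With array quality weights FFPE gave -0.15 for Acaa1b at 198 mg/kg-d, -0.20 for Crot and 0.68 for Decr2 at 313 mg/kg-d, and 7 members that rose, all 7 as DEGs, at 427 mg/kg-d. Without libraries over 10% of genes at 0 the first 3 were -0.43, -1.18 and 0.58. Median-ratio scaling gave -0.0036 for the FFPE step of Acaa1b from 313 to 427 mg/kg-d and -0.043 for Pex11a in FROZ at 198 mg/kg-d. Fitted to only the groups compared, 1 member rose in FROZ at 198 mg/kg-d. The shares of all genes that rose in this fit and with array quality weights were not counted. Leaving out 1 library at a time, values that changed sign ran in FFPE at 198 mg/kg-d from -0.011 to 0.35 (Acaa1b), -0.55 to 0.93 (Crot) and -0.25 to 0.92 (Pex11a), at 313 mg/kg-d from -0.23 to 1.07 (Crot) and -0.74 to 0.53 (Decr2), at 427 mg/kg-d from -0.048 to 1.15 (Crot), and in FROZ at 198 mg/kg-d from -0.24 to 0.067 (Abcd2) and -0.063 to 0.12 (Pex11a). In FFPE, Pex11a, Decr2 and Crot have libraries at 2 reads or fewer, as has Ehhadh in vehicle controls, which limits the precision of all 4 genes. With an offset of 0.1 CPM the Ehhadh difference between preservations was 0.86 at 313 and 1.48 at 427 mg/kg-d. The causes were not tested.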
